A study of Mus musculus with 188 samples.

Results

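The late bins described here are the 50 kb autosomal bins that came after the middle of the replication schedule of mouse embryonic stem cells (mESCs) and before its latest 10%. They were chosen by measured values. In each bin, the mean smoothed replication score of the haploid cells was averaged with that of the diploid cells, all bins were ranked from the highest (earliest) to the lowest mean score, and those ranked 65% to under 90% were taken. This gave 11278 of 45112 used bins, or 563.9 Mb. Their mean scores ran from -0.39 down to -0.89, with a median of -0.67. The last bin before the window and the first bin inside it both had a mean score of -0.387, and the bins on either side of the 90% limit both had -0.890, so the window has no natural border in the data. Scores and replicated shares of these bins are therefore a description of what was chosen, whereas base composition, gene annotation, the difference between the lines and the difference between homologs were not used to choose them.

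Mammalian chromosomes replicate in large domains that fire together, and the domains follow a reproducible order through S phase. Early domains are usually gene-rich, transcribed and rich in GC, and late domains are usually gene-poor, rich in AT and repeats, and close to the nuclear lamina. Many tissue-specific genes, such as those of neurons and sensory cells, lie in late domains of stem cells and move to earlier replication in the lineage that uses them.

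The cells came from the haploid mESC line H129-2 and the diploid hybrid line F121-9, which carries chromosomes of the strains 129 and Castaneus, both grown in N2B27 medium with 2i and LIF. Nuclei were sorted from S phase by DNA content and their amplified DNA was sequenced one by one, so that replicated DNA is seen as a higher copy number. Of 188 labelled cells, 75 haploid and 63 diploid S-phase cells had values, and S-phase progress, the percentage of used bins a cell had replicated, ran from 24.6% to 88.6% and from 18.2% to 79.1%. The labels give each cell a line and a well and name no culture or plate, so each line was taken as 1 sample, no test between lines was possible, and SDs are the spread over cells unless bins or pairs are named. The score is relative within a cell and was smoothed by the authors over 15 windows, so neighbouring bins are not independent. The scores do not give the read depth of a cell. DNA copy number carries no expression, so the labelled cell type was not checked against marker genes.

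Sequence of 200 bases from the middle of single bins shows what DNA of these classes looks like. The bins are those with a GC content nearest to the median of their class and the late bins with the lowest and highest GC content, and CpG dinucleotides are in capitals. All are on the plus strand of mm10 (GRCm38), read from RefSeq's GRCm38.p6.
Late bin of median GC, chr1:81924901-81925100: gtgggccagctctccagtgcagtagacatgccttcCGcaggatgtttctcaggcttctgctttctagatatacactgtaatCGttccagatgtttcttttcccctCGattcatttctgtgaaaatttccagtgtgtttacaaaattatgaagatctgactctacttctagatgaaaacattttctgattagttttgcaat
Early bin of median GC (rank 10% to under 35%), chr1:58724901-58725100: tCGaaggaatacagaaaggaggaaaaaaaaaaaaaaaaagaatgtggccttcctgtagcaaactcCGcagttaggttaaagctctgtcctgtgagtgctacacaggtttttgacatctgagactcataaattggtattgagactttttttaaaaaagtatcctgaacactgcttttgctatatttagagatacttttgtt
Bin of the earliest 10% of median GC, chr11:100324901-100325100: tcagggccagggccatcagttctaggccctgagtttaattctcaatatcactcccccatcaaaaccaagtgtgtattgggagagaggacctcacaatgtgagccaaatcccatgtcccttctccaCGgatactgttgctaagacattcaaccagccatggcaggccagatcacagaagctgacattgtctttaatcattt
Late bin of lowest GC, chr1:146524901-146525100: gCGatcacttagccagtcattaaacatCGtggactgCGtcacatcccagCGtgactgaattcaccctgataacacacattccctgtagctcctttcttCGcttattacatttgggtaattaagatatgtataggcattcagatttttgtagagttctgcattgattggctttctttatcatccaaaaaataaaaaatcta
Late bin of highest GC, chr15:87574901-87575100: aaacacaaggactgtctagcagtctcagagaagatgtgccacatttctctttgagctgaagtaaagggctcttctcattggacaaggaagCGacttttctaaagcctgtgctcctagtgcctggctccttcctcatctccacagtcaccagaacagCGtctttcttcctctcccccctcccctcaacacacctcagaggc
The late bin of median GC held 38.7% GC over its 50 kb and 39.5% in the 200 bases shown, with 3 CpGs. The early bin held 44.8% over its 50 kb but 35% in the bases shown, with 2 CpGs. The late bin of lowest GC had 32.6% and that of highest GC 49.6%. A stretch this short does not tell the classes apart, and their difference appears over whole bins: the middle 200 bases held no CpG in 38.6% of late bins, 26.2% of all other used bins and 16.7% of bins of the earliest 10%.

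Late bins were poorer in GC and CpG, richer in repeats and poorer in genes than the rest of the used genome. Their median GC content was 38.7% (interquartile range 37.6% to 40%), against 42.8% in all other used bins, a difference of -4.16 percentage points. GC content lay below the median of the other bins in 96% of late bins, while 15.9% of the other bins lay below the median of the late bins. The median CpG density was 5.54 per kb in late bins and 9.08 per kb in the others. Bases masked as repeats in the reference made up a median of 35.7% of late bins and 29.4% of the others, a difference of 6.37 points, and here the ranges overlapped more, with 69% of late bins above the median of the others. Compared with the early bins that sit at the same distance from the other end of the schedule (rank 10% to under 35%), the GC content was 38.7% against 44.8% and the masked share 35.7% against 27.6%. The latest 10% went further, with 37% GC and 40.7% masked.

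Composition also varied inside the late window. From its first 5 points of rank (65% to under 70%) to its last (85% to under 90%), the median GC content went from 39.7% to 37.7%, the masked share from 33.3% to 38.3% and the number of protein-coding gene starts from 4.26 to 2.25 per Mb. Across the late bins, Pearson's r between rank and GC content was -0.41 and Spearman's rho -0.42 (n = 11278 bins), given as a description because neighbouring bins share smoothed scores and base composition. The corresponding r for the masked share was 0.11. Within the window, rank was thus related more closely to GC content than to repeats.

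**Figure D1:**
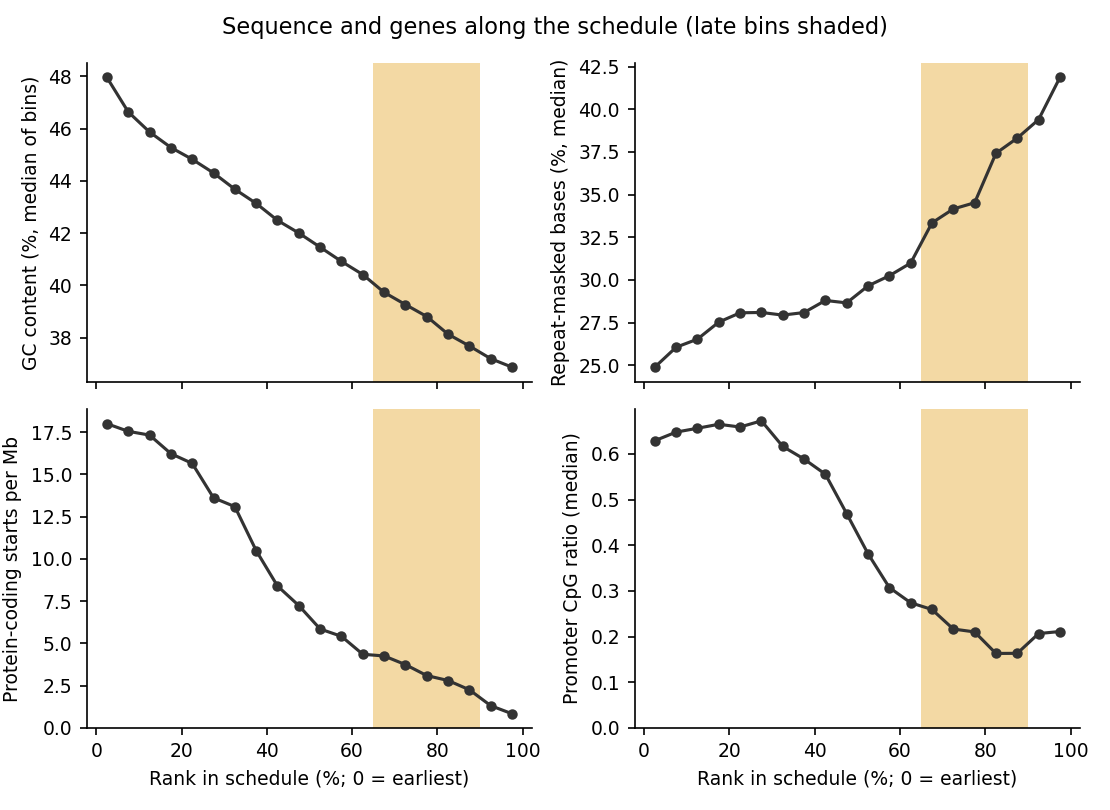
Median GC content (%), median share of repeat-masked bases (%), protein-coding gene starts per Mb and median promoter CpG ratio of bins in 20 bands of 5 points of rank, from the earliest (0) to the latest, with the late bins shaded. GC content goes down over the whole schedule, while the promoter CpG ratio lies between 0.616 and 0.672 in the first 35% and is lowest, at 0.163, in the last 2 shaded bands. It is 0.207 and 0.211 in the 2 bands after them.

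Late bins held 1821 of the 19345 protein-coding genes whose start lay in a used bin, or 9.41%, although they made up 25% of the bins. The density was 3.23 starts per Mb, against 10.4 in all other bins and 15.2 in the early bins of rank 10% to under 35%. In 88.2% of late bins no protein-coding gene started, against 66.6% of the others, and protein-coding genes covered 28.4% of late bases and 47% of the others. The genes that were present also differed in their promoters. The CpG ratio, the observed over the expected number of CpGs from 250 bases before to 50 after the gene start, had a median of 0.204 in late bins (n = 1821 genes) and 0.603 in the others (n = 17524 genes), a difference of -0.40. Of the 1821 late genes, 522 were olfactory receptor genes, and their part in this difference was not tested. Promoters with a ratio above 0.6, the kind usual for housekeeping genes, made up 20.3% of late and 50.2% of other promoters. The latest 10% was close to the late bins in this, with a median ratio of 0.207 and 18.6% of promoters above 0.6. A late promoter held a median of 2 CpGs and another promoter 14, and 18.2% of late promoters held none, against 3.37% of the others.

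The range among late promoters was wide. The promoters below belong to the genes of the lineage and neural adhesion lists in late bins with the lowest and the highest CpG ratio, printed in the direction of transcription with CpGs in capitals, on mm10 and from the same RefSeq sequence. They are shown because late bins hold both CpG-poor and CpG-rich promoters. Each gene was read at the outer end of its annotation only, and other starts of the same gene were not looked at.
Opcml, chr9:27790525-27790824, plus strand: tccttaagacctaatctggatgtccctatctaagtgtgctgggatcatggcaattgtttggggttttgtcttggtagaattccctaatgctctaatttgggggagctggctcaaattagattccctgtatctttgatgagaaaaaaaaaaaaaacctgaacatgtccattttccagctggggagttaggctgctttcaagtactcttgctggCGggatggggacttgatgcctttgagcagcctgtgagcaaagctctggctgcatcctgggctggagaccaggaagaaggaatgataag
Mef2c, chr13:83503784-83504083, plus strand: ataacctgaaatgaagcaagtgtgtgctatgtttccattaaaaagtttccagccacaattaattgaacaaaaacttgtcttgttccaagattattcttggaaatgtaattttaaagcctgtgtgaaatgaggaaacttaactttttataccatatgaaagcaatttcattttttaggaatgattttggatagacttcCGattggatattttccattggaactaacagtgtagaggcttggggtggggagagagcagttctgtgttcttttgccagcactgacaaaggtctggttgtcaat
Lrrtm1, chr6:77242439-77242738, plus strand: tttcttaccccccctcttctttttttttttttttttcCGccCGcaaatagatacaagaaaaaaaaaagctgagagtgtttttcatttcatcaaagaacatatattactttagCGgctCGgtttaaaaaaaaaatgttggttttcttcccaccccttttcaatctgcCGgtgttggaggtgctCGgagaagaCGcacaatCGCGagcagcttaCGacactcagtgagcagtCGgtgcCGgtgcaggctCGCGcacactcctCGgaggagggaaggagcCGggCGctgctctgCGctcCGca
Pou4f1, chr14:104467950-104468249, minus strand: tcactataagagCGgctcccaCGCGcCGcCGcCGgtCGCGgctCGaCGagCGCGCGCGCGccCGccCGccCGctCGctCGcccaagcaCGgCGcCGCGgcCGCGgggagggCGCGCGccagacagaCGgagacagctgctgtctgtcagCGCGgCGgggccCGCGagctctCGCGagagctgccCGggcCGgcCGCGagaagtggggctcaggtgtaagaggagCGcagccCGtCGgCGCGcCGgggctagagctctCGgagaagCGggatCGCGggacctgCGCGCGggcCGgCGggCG
Opcml, a cell adhesion molecule of neurons, had 1 CpG and a ratio of 0.0653, and Mef2c, a transcription factor of muscle, heart and neurons, had 1 CpG and a ratio of 0.109. Lrrtm1, a synapse organizer, had 19 CpGs and a ratio of 1.09, and Pou4f1, a transcription factor of sensory neurons, had 57 CpGs and a ratio of 1.24. Over the 33 genes of both lists in late bins the median ratio was 0.605, close to that of genes outside the late bins. Low CpG content is thus not shared by all late genes.

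Genes of sensory receptors, neuronal receptors and neural adhesion started in late bins more often than protein-coding genes at large (9.41%). Among 1058 olfactory receptor genes 522 did (49.3%), among 33 taste receptor genes 15 (45.5%) and among 201 vomeronasal receptor genes 68 (33.8%). Vomeronasal receptors were more frequent in the bins of rank 35% to under 65%, with 107 genes (53.2%), and the latest 10% held 11 taste receptor genes (33.3%), 25 vomeronasal (12.4%) and 24 olfactory receptor genes (2.27%). Among 34 subunits of glutamate and GABA-A receptors, the channels of fast transmission between neurons, 16 did (47.1%), with 3 more (8.82%) in the latest 10%. Among 57 synaptic and neural adhesion genes 23 did (40.4%), with 15 more (26.3%) in the latest 10%. Genes of 500 kb or longer started in late bins in 71 of 212 cases (33.5%) and in the latest 10% in 29 (13.7%). Of all protein-coding genes 1.25% started in the latest 10%. All of these lists were above that share too, so their excess is not particular to the late bins. These lists overlap, since several adhesion genes are very long, and clustered genes share bins, so their members are not independent. In all, 11 of 24 lists had a larger share in late bins than protein-coding genes at large.

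None of 33 pluripotency genes, 39 Hox genes, 54 replication factors, 63 histone genes, 31 MHC genes or 53 keratins started in a late bin. Most pluripotency genes and replication factors were early: 10 and 12 of them started in the earliest 10%, and 20 and 33 at rank 10% to under 35%. Of 70 ribosomal protein genes, 1 was late, Rpl10l, which had no mid-S diploid cell with a replicated bin and 12% of haploid ones. Of 80 respiratory chain genes, 3 were late, namely Ndufa4, Cox7c and Cox7b2. Keratins had no member in late bins, while 11 of 57 genes for keratin-associated proteins (19.3%) did.

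Other lists lay nearer to the value of all protein-coding genes or below it. Late starts were found for 10 of 46 serpins (21.7%), 13 of 91 potassium channels (14.3%), 10 of 73 lineage regulators (13.7%) and 10 of 90 cytochrome P450 genes (11.1%). They were fewer among cadherins and protocadherins (7 of 89, 7.87%), solute carriers (21 of 317, 6.62%), defensins (2 of 42, 4.76%), chemokines and interleukins (3 of 66, 4.55%) and Zfp genes (10 of 332, 3.01%). The named serpins, from Serpinb5 at rank 66% to Serpinb7 and Serpinb11 at 88.3%, all lie on chromosome 1, so a single locus carries these 6 of the 10.

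**Figure D2:**
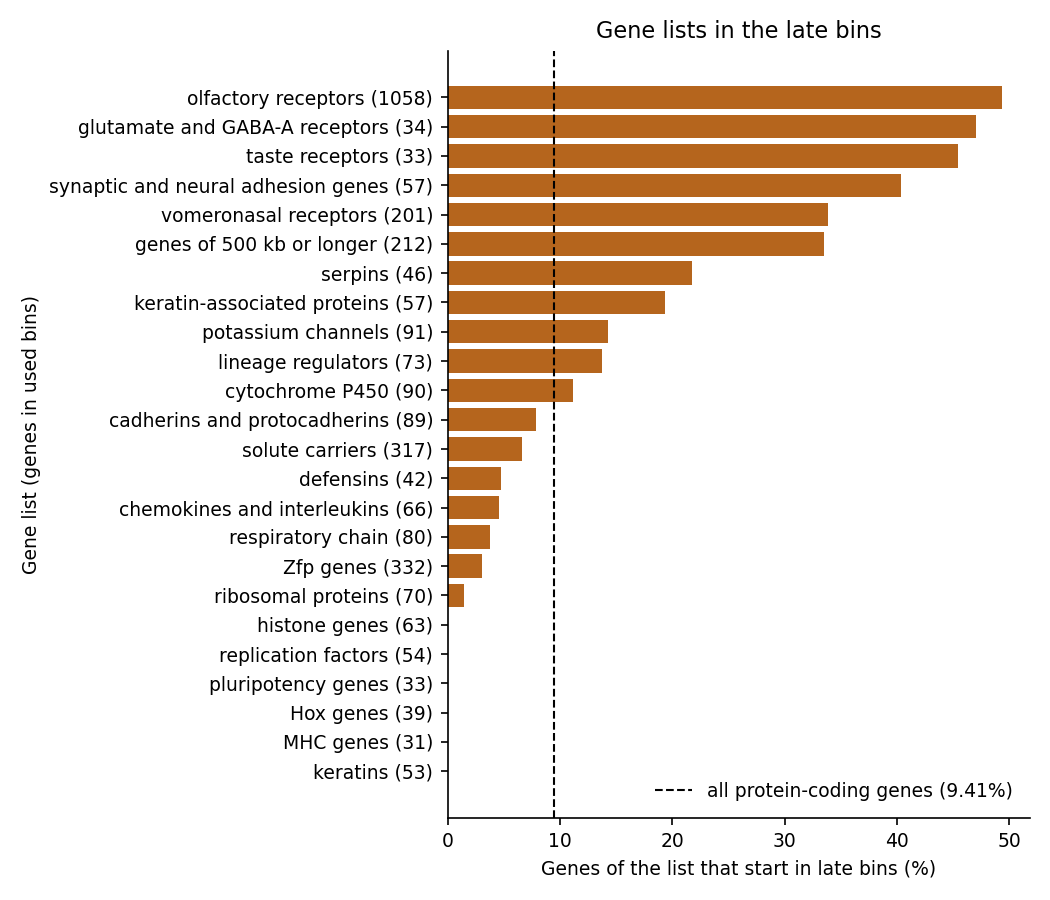
Percentage of the genes of each list that start in late bins, with the number of genes in used bins in brackets and a dashed line at the value of all protein-coding genes (9.41%). Sensory receptor, neuronal receptor and adhesion lists lie farthest to the right, and 6 lists have no gene in late bins.

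The scores of single genes place them inside the window. Neurod1, a regulator of neuronal and pancreatic development, started in a bin at rank 66.1%, and its score in mid-S haploid cells (40% to under 60% progress) had a lowest value of -1.10, a median of -0.80 and a highest of 0.74 (n = 25), and in diploid ones of -1.49, -0.49 and 0.39 (n = 45). The bin had replicated in 12% of the haploid mid-S cells and, as the mean of both homologs, in 23.3% of the diploid ones, and in 92% of the haploid cells over 70% progress (n = 25). The ranges of the lines overlapped. Emx2, a regulator of forebrain development, had a similar rank of 65.7%.

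Mef2c was near the end of the window at rank 85.5%. Its score in mid-S haploid cells ran from -1.04 to -0.16 with a median of -0.79, and in diploid ones from -1.57 to -0.23 with a median of -0.92. It had replicated in 8.0% and 5.56% of these cells and in 48% of the haploid cells over 70% progress. Myf5 and Myf6, the neighbouring regulators of skeletal muscle, shared a bin at rank 84.7%, replicated in 44% of the haploid cells over 70%.

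Among neuronal receptors, Gria2, a subunit of AMPA-type glutamate receptors, was the earliest of the late group at rank 69.3%. Gabrb2, a GABA-A receptor subunit, was the latest at 86.6%. Gria2 had replicated in 40% of mid-S haploid cells and 15.6% of diploid ones, and Gabrb2 in 8.0% and in none. Among adhesion genes, Cntnap4 lay at 65.5% and Cntn1 at 68.1%, while the starts of Tenm2 (89.8%) and Lsamp (89.9%) lay at the border to the latest 10%. Lsamp, which encodes a surface protein of neurons, spans 2197 kb, and its bins ran from rank 62.3% to 92.4%, with 79.5% of them late. Opcml, at 1135 kb, and Nkain2, at 1201 kb, lay in late bins from end to end. Among the 218 genes of 500 kb or longer with used bins, 34 lay wholly in late bins, 98 in part and 86 not at all.

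Sensory receptors covered the whole window. The olfactory receptor Olfr342 had a rank of 65.1% and had replicated in 96% of haploid cells over 70% progress. Olfr1085, Olfr1086 and Olfr1087 shared a bin at 89.97%, replicated in 56% of those cells. Vmn2r91, a vomeronasal receptor, was at 65%, the earliest of the vomeronasal receptors in late bins, although most of its list came before the window. Tas2r119, a bitter taste receptor, was at 69.8% and Tas2r103 at 87.5%.

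In single cells the late bins stayed mostly unreplicated until a cell had passed 60% progress and then replicated over the last part of S phase. In mid-S cells 9.44% ± 4.68 of the late bins had replicated in the haploid line (SD, n = 25) and 8.55% ± 5.12 in the diploid line (SD, n = 45). The lines differed by less than the spread between cells. Haploid cells of 60% to under 70% progress had replicated 23.1% ± 3.16 of the late bins (SD, n = 14), those of 70% to under 80% 47.6% ± 8.18 (SD, n = 14) and those of 80% to under 90% 72.9% ± 7.96 (SD, n = 11). Diploid cells of 60% to under 70% progress had replicated 18.8% ± 3.67 (SD, n = 13). In this window the haploid cells began at 63.1% progress and most diploid cells lay below that, so the lines were not matched there. Only 1 diploid cell was past 70%, with 67.7% of its late bins replicated at a progress of 79.1%, so what follows on late cells rests on the haploid line.

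**Figure D3:**
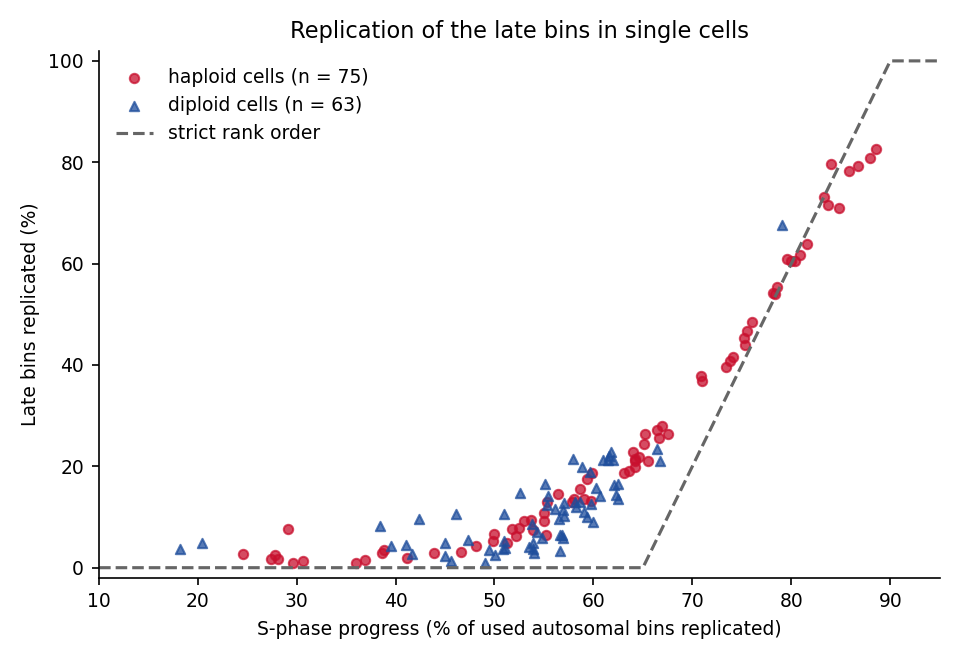
Percentage of the late bins replicated in each cell (y axis) by its S-phase progress (x axis), for haploid cells (circles) and diploid cells (triangles), with a dashed line for a cell that replicated bins strictly in the order of the ranking. Below 65% progress all cells lie above the line, and the 11 haploid cells of 80% or more lie between 60.5% and 82.6%.

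A cell following the ranking strictly would replicate no late bin before 65% progress. Cells below 55% progress had replicated 5.0% ± 3.10 of them (SD, n = 52), the lowest at 0.913% and the highest at 14.8%. Wrongly called states were not told apart from early replication in these shares. In the least advanced haploid cells the share was 2.89% ± 2.42 at 20% to under 30% progress (SD, n = 6), where 1 cell had 7.66%. It was 2.08% ± 1.07 at 30% to under 40% (SD, n = 5) and 4.06% ± 1.73 at 40% to under 50% (SD, n = 6). The early bins of rank 10% to under 35% give the reverse measure. In the 31 cells of 45% to 55% progress, 5.35% ± 3.57 of those early bins were still unreplicated and 5.96% ± 3.18 of the late bins had replicated. The early share was the higher of the pair in 11 of 31 cells, and the difference of -0.613 ± 3.47 points was smaller than its spread.

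The ranking used the scores of these same cells, so replicated shares by rank inside the window describe it. In mid-S haploid cells the replicated share was 19.4% ± 8.31 at rank 65% to under 70%, 7.67% ± 4.59 at 75% to under 80% and 2.68% ± 1.90 at 85% to under 90% (SD, n = 25). In haploid cells of 80% or more progress it was 90.2% ± 5.01, 76.5% ± 9.36 and 48.5% ± 13.3 for the same ranks (SD, n = 11). Single bins varied widely. Over the 25 haploid cells past 70% progress, the median late bin had replicated in 60% of cells, 74 bins had replicated in every cell and 6 in none. In the 17 haploid cells under 50% progress, 63.1% of late bins had replicated in no cell.

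Because the same scores chose the bins, the ranking was repeated in one line and read in the other. Bins ranked 65% to under 90% on haploid cells alone had replicated in 10.5% ± 5.13 of their number in mid-S diploid cells (SD, n = 45) and 20.5% ± 3.36 in diploid cells of 60% to under 70% progress (SD, n = 13). Bins ranked on diploid cells alone had replicated to 10.5% ± 4.72 in mid-S haploid cells (SD, n = 25) and 24.4% ± 2.93 at 60% to under 70% progress (SD, n = 14). Most diploid cells of 60% to under 70% were less advanced than the haploid ones, so the values of the lines there are not matched. The early bins of rank 10% to under 35% read this way were at 92.8% ± 5.34 and 92.9% ± 3.59 in mid-S cells, and no mid-S diploid cell was below 77% there or above 22.8% at the late bins. Of the late bins, 87.9% fell in the same window on haploid cells alone, 85.5% on diploid cells alone and 73.5% on both, and 0.133% on neither.

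The spread of replication around the scheduled time was summarised by T_width, the time between 25% and 75% replicated on a sigmoid fitted to the share of bins replicated by time from schedule, with S phase set to 10 h and each cell left out of its own schedule. For the late bins T_width was 1.78 h, against 2.29 h for bins of rank 35% to under 65% and 2.67 h for those of rank 10% to under 35%. It was 1.82 h in haploid cells and 1.56 h in diploid cells. Only 3 diploid cells were at 65% progress or more, and 1 of them past 70%. The part of the diploid curve after schedule thus rests on few cells. The T_width values are single fits without replicate error. The classes were also seen over different parts of the curve: late bins from 7.15 h before to 2.35 h after schedule, and early bins from 1.65 h before to 7.85 h after, where the lowest interval was already at 27.4% replicated. Whether that contributes to the difference in T_width was not tested.

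In the hour before schedule 36.9% of late-bin values were replicated (87 cells) and in the hour after it 67.5% (35 cells). Between 1 h and 2 h after schedule the share was 87.2% (21 cells). More than 3 h ahead of schedule it was 2.79% (86 cells). There was no steady rise between 6.05 h before schedule, at 2.30%, and 3.55 h before it, at 2.44%. Whether such values are early replication or wrongly called states was not tested.

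**Figure D4:**
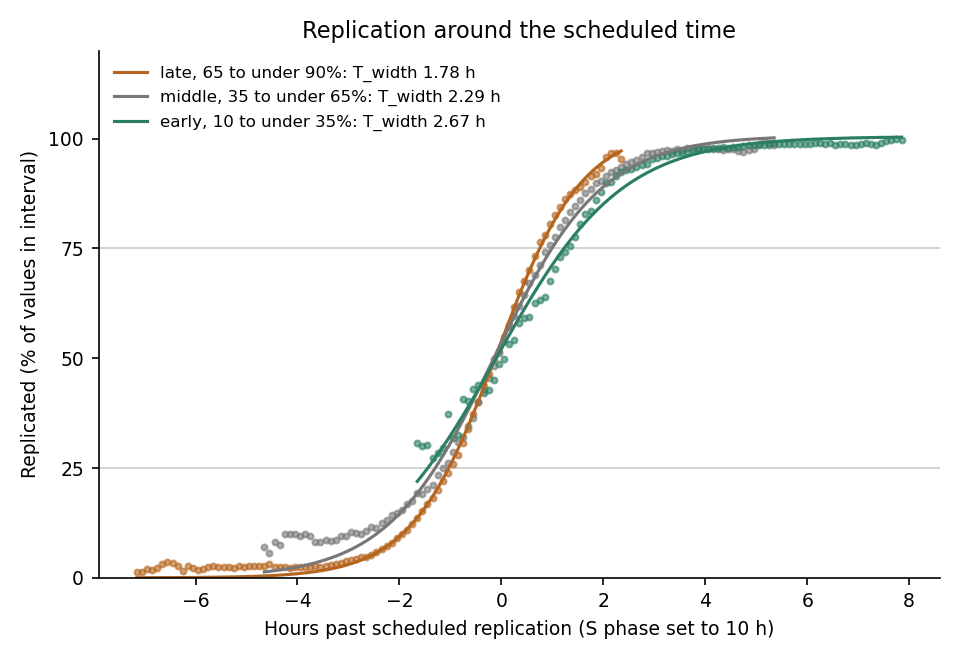
Share of bin values replicated (%) by hours past schedule, each point an interval of 0.1 h, with fitted sigmoids, for late, middle and early bins over 138 cells; horizontal lines mark 25% and 75%. The late curve is the steepest, with a T_width of 1.78 h, and late points stop 2.35 h after schedule, whereas early points begin 1.65 h before it.

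Late bins lay in 1079 unbroken runs with a median length of 400 kb and a longest of 3450 kb. Runs of 1 Mb or more numbered 144 and held 39% of the late bins, and 147 runs were single bins. By the class of the adjoining bins, 170 runs were troughs with earlier bins on both sides, 148 lay on slopes between an earlier bin and the latest 10%, and 110 were shoulders with the latest 10% on both sides. The other 651 runs, with 51.7% of the late bins, had a bin without values or a chromosome end on at least one side. Troughs held 2559 bins with a median GC content of 39.8% and a masked share of 30.1%, slopes 2265 bins with 38.7% and 34%, and shoulders 620 bins with 37.8% and 37.3%. These kinds of run differ in rank, with medians of 72.5%, 80.2% and 87.4%. At a common rank of 75% to under 80%, the GC content was still 39.5% in troughs (502 bins), 38.8% on slopes (405 bins) and 38.3% in shoulders (50 bins), and the masked share 29.9%, 32.2% and 34.8%. Trough bins thus differed from the others in composition also where rank was held alike.

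Runs often did not replicate as a whole. Among the 710 runs of at least 5 bins, a haploid cell of 70% to under 80% progress had replicated 29.7% ± 7.73 in all bins and 27.3% ± 5.99 in none, and 43% ± 3.03 were replicated in part (SD, n = 14). At 80% to under 90% progress these shares were 57.2% ± 10.4, 13.2% ± 4.36 and 29.6% ± 7.74 (SD, n = 11). In mid-S haploid cells 76.4% ± 9.28 of the runs were untouched (SD, n = 25). Longer runs have more room for a border, so these shares depend on run length.

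The longest run, chr12:42700001-46150000, held the starts of Nrcam, a neuronal adhesion molecule, Stxbp6, Pnpla8 and Dnajb9. Its mean score in mid-S cells had a lowest value of -0.98, a median of -0.74 and a highest of -0.34 in the haploid line (n = 25), and of -1.03, -0.76 and -0.17 in the diploid line (n = 45). The lines overlapped throughout. No mid-S cell had replicated the whole run, and 16 of 25 haploid and 30 of 45 diploid cells none of it. The next longest were chr3:117500001-120750000 with Dpyd, an enzyme of pyrimidine breakdown, chr13:83200001-86150000 with Mef2c and Rasa1, chr2:140550001-143300000 with Kif16b and Flrt3, and chr9:27600001-30250000 with the adhesion genes Opcml and Ntm. These runs held 2 to 5 protein-coding gene starts each. The chr9 run stood apart in composition, with 41.8% GC and 19.1% masked bases, the others being at 38% to 39.5% GC.

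A few late runs were called replicated in some cells of low progress. In cells under 50% progress (n = 31) the median run of at least 5 bins had replicated in 3.23% of values, and the highest value was 24.5%, at chr12:114050001-114300000. This run lies in the immunoglobulin heavy chain locus and held 12 variable segments and 5 variable-segment pseudogenes. It was called replicated more often in the diploid line: 26 of 45 mid-S diploid cells had all of it replicated and 1 of 25 haploid cells had. Diploid cells had all of it in 6 of 14 under 50% progress and in 7 of 13 at 60% to under 70%. Haploid cells had none of it in 17 of 17 under 50% progress and in 19 of 25 over 70%. Copy number and timing cannot be told apart in these values. Next came chr3:99100001-99400000 at 16.1%, with Tbx15, a developmental transcription factor, and Wars2. At chr3:106350001-106850000 it was 15.2% (Lrif1, Cept1, Cd53), at chr16:58350001-58850000 14.5% (Dcbld2, St3gal6, Cpox) and at chr5:126450001-126850000 14.1%, with no protein-coding start. The chr5 run was the one of these in which the haploid line was ahead, with 29% of mid-S haploid and 11.4% of diploid values replicated.

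Other late runs remained mostly unreplicated in the most advanced cells, which reached 88.6% progress at most. In cells over 70% progress (n = 26, 25 of them haploid) the median run had replicated in 61.2% of values. The lowest was chr3:77350001-77650000 at 6.41%, and chr2:45800001-46050000, chr3:140800001-141050000, chr11:37450001-37700000 and chr12:114450001-114700000 were all at 11.5%. None of these held the start of a protein-coding gene. The last is again in the heavy chain locus, with 14 variable segments, and lies close to the run that was often called replicated in diploid cells. Its mean rank of 82.7% was the earliest of the group, the others being at 86.9% to 89%. Most cells over 70% progress had not reached those ranks, so the low shares of the others follow from the ranking and show no delay.

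The difference between the lines was not used in the ranking and was small at most late bins. Haploid and diploid scores were compared in windows of 10 points of progress that held both lines, inside which progress could still differ. Over the late bins the haploid minus diploid score had a mean of 0.02 and an SD over bins of 0.17. A difference of at least 0.5 with the haploid line higher was seen at 59 late bins, or 0.523%, against 0.397% of all used bins, and one with the diploid line higher at 31, or 0.275%, against 0.913% of all used bins. The share with the haploid line higher was thus near the background and that with the diploid line higher below it. The 59 bins formed 17 runs and the 31 bins 8 runs, so these shares rest on few loci. The latest 10% had no bin with such a difference, and the middle of the schedule had 300 with the diploid line higher, or 2.22%. The classes are ranks of the mean of both lines, so they may not leave equal room for a difference, and this was not tested. With each chromosome of each cell centred on its own median and the bins ranked again, which kept 9472 of the late bins, the split among late bins turned from 59 and 31 to 22 and 61. Among all used bins it went from 179 and 412 to 56 and 401, with the diploid line higher at more bins both times. Which line was higher at more of the late bins thus differed between the scalings.

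On chromosomes with the largest offsets the late bins lay on the same side as all used bins, of which they are a part. Their mean difference was 0.21 on chromosome 11, where all used bins had 0.26, and -0.14 on chromosome 3, where all used bins had -0.19. On chromosome 19 it was 0.06 against 0.17 and on chromosome 10 it was 0.03 against -0.01, so the late bins did not match their chromosome everywhere. In mid-S cells this gave 13.4% of late values replicated in haploid and 5.03% in diploid cells on chromosome 11, and 5.80% and 11.2% on chromosome 3. The part of chromosome-wide copy number in these values was not tested. The share of late bins also differed between chromosomes, from 15.1% of used bins on chromosome 11 to 36.1% on chromosome 3.

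**Figure D5:**
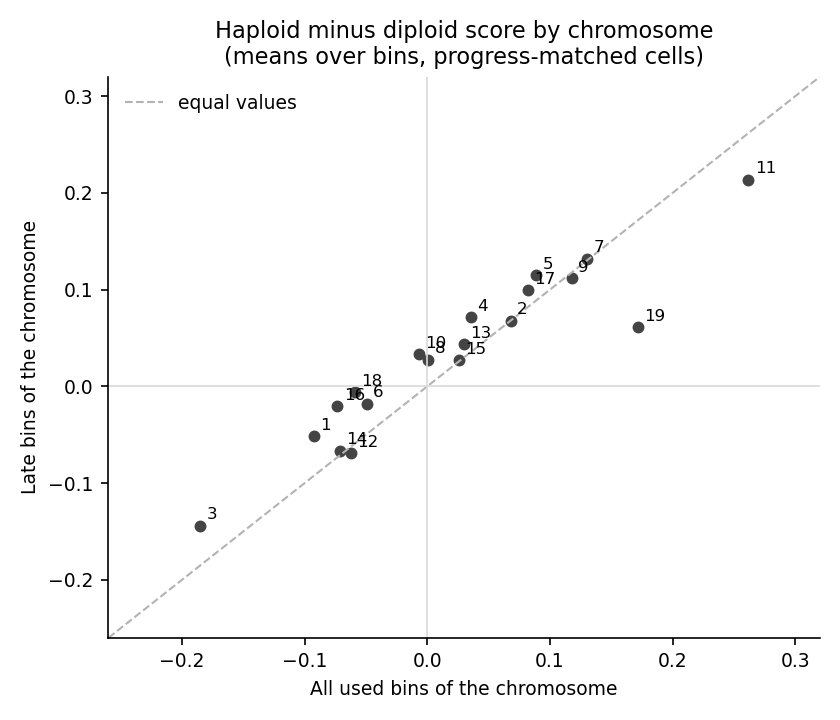
Mean haploid minus diploid score (no unit) of the late bins of each autosome (y axis) against that of all used bins of the autosome (x axis), in cells matched for progress; numbers name the chromosomes and the dashed line marks equal values. Chromosome 3 lies lowest at -0.14 and chromosome 11 highest at 0.21 on the y axis, both near the line, and chromosome 19 lies farthest from it, at 0.06 against 0.17.

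Differences at single runs are given as measured, with the offset of the chromosome included. The largest with the diploid line higher was the heavy chain run chr12:114050001-114300000, with a mean of -0.79. Its score in mid-S haploid cells had a lowest value of -1.48, a median of -0.93 and a highest of -0.10 (n = 25), and in diploid cells of -0.65, -0.02 and 0.53 (n = 45). The median haploid cell lay below every diploid cell, although the ranges overlapped. Over the 32 used bins of chromosome 12 in which immunoglobulin variable segments start, 16 of them late, the difference ran from -0.83 to 0.31 with a median of -0.35, so the direction was not the same across the locus. The haploid line is of strain 129 and the diploid line has a Castaneus homolog, and the difference may be of copy number or of timing, which these values cannot tell apart.

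The next largest were chr6:106400001-107750000 (-0.43), with Lrrn1, a neuronal surface protein, and Crbn, a ubiquitin ligase subunit, and chr12:29400001-30850000 (-0.43), with Myt1l, a neuronal transcription factor, and Pxdn. At the chr6 run 0.444% of mid-S haploid and 30.9% of diploid values were replicated, and 24 of 25 haploid cells against 17 of 45 diploid cells had replicated none of it. Its score was highest at -0.64 in a haploid cell and at 0.34 in a diploid cell, with medians of -0.82 and -0.55. Then came chr1:67250001-67700000 (-0.43) and chr14:9800001-10900000 (-0.41), without a protein-coding start.

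With the haploid line higher, the largest were chr4:15900001-16850000 (0.49), chr11:26450001-27000000 (0.48), chr9:17300001-18050000 (0.48), chr10:64600001-65150000 (0.46) and chr11:73650001-74050000 (0.46). The chr4 run holds Ripk2, a kinase of innate immune signalling, and Nbn, a DNA break repair protein. Its score in mid-S haploid cells was -1.14 at the lowest, -0.45 at the median and 0.80 at the highest, and in diploid cells -1.66, -0.87 and -0.23. In mid-S cells 36.8% of its haploid values and 6.67% of its diploid values were replicated. On chromosome 11 all used bins had a mean difference of 0.26, which is included in the values of its runs. The second chr11 run held 11 protein-coding starts, among them Zfp735 and olfactory receptors, and all 25 haploid cells over 70% progress had replicated it whole. The run chr11:26450001-27000000 held Vrk2, another kinase, and those of chr9 and chr10 no protein-coding start.

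Homologs of the diploid cells differed in state at few late bins, as elsewhere. The authors let the states of a segment differ only where enough parsed reads fell outside the control range, so a bin without a call may still have differed. An asynchronous state was called at 0.861% ± 1.53 of late bins and 0.873% ± 1.63 of the other used bins (SD, n = 63). The difference within a cell was -0.0118 ± 0.550 points, positive in 21, negative in 24 and 0 in 18 cells, so it was smaller than the spread between cells. Within 1 h of schedule it was 0.0143 ± 0.589 points in the 35 cells with enough such bins. Late bins with only the 129 homolog replicated made up 0.513% ± 0.910 and those with only the Castaneus homolog 0.347% ± 0.681, a difference of 0.166 ± 0.503 points. In the other used bins these shares were 0.542% ± 0.955 and 0.330% ± 0.711, a difference of 0.212 ± 0.427 points, so late bins differed from the others by less than the spread between cells. The limits of the call differ between homologs, so a difference of 0 is not the neutral value. Calls were concentrated, with 33.5% of the 6116 late calls in 3 of 63 cells and none in 27 cells. At 60.9% of late bins no cell had a call, against 59.6% of all used bins, and 5 cells had one at 13 late bins and at 23 of all used bins. The run with most calls was chr15:90150001-92500000, with 120 calls in 5 cells, which holds Cntn1, Lrrk2, a kinase linked to Parkinson disease, and Slc2a13. It was followed by chr14:113350001-115600000, with the start of Gpc5 and 98 calls in 5 cells, and by the chr9 run of Opcml with 97 calls in 4 cells.

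Pairs of cells of equal progress show how much the state of late bins varied between cells. The bins were ranked on the scores of these same cells and are part replicated at this progress by choice, so the values describe the choice. In pairs within 1 percentage point of progress and inside a line, the share of late bins in different states was 16.1% ± 6.0 at 50% to under 60% progress (SD over 137 pairs of 54 cells), 27.5% ± 3.38 at 60% to under 70% (74 pairs of 30 cells), 38.9% ± 2.33 at 70% to under 80% (14 pairs of 14 cells) and 33.3% ± 4.91 at 80% to under 90% (11 pairs of 13 cells). The other used bins differed in 16.9% ± 2.86, 13.8% ± 2.84, 6.09% ± 1.59 and 8.54% ± 4.90 of cases. Pairs share cells and are not independent.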

How the data were processed

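Copy number in 50 kb bins of 138 single cells was used as deposited. The authors aligned reads to mm10 with Bowtie2, kept those of mapping quality above 10, and made a smoothed replication score per bin: depth-scaled coverage over the mean of G1 and G2 cells, centred, set to a common interquartile range and smoothed by the median of 15 windows. They also deposited binary states (other values, 0 or 1) made from segments of the scores, per cell and, for diploid cells, per homolog. The score has no unit, and sequencing depth per cell is unknown. Another 24 columns matched no labelled cell and were not used.

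Progress is the percentage of used bins in the replicated state, the mean of both homologs in diploid cells. Bins without a score in over 50% of the cells of a line were left out. Gene starts came from GENCODE M21 and sequence from RefSeq's GRCm38.p6, and its lower case letters were taken as masked repeats. Named genes were the 3 earliest and 3 latest of each list in late bins, and named regions the 5 most extreme runs by length, line difference, early or late state and asynchronous calls; not all of them are reported here. The window, gene lists and regions were chosen with earlier results of these data known. Computation used python 3.11.15, numpy 2.4.6, pandas 2.3.3 and scipy 1.17.1. The T_width fit of the late bins and the line difference were tested on simulated data with independent bins, and the other steps were not. Each line was taken as 1 sample, and no p-value was computed.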

Additional observations from a re-analysis of the deposited data

How the results depend on the processing

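Of 129 alternatives, 116 were planned and 13 added after the values were seen. All but 4 left their result within 1 SD over cells or pairs or, where it had no SD, within 1.5 times its value. This rule is lenient and the tally is no measure of stability. A result smaller than its SD passed also with its sign changed. The count of line differences with centred chromosomes passed at 83, although its split turned from 59 and 31 to 22 and 61. The count of late bins at which the lines differed by 0.5 or more was 42 in the narrower window of rank 70% to under 85%, which holds fewer bins, and 953 with a limit of 0.3. Late bins formed 586 runs when gaps of up to 2 bins were joined. Gene content measured as bases inside protein-coding genes differed by -18.6 percentage points, another unit than starts per Mb and the same direction. The asynchronous difference ranged from -0.0401 to 0.103 points and remained smaller than its SD over cells. T_width of the late bins ranged from 1.56 h, in diploid cells alone, to 1.97 h. The mid-S replicated share ranged from 7.78% to 9.95% and the GC difference from -4.21 to -3.50 points. The 13 added alternatives left out 1 cell of each of the 3 diploid pairs with the most alike scores (Pearson's r over bins of 0.934, 0.924 and 0.924). No paired analysis was possible because the numbers of haploid and diploid cells only name wells, with no tie between the lines. The effect of depth was not tested, since the depth of each cell is unknown.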

Other observations

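Segments of antigen receptor genes were frequent in the late bins. Of 146 immunoglobulin variable genes in used bins 97 started there (66.4%), with 18 more in the latest 10% and 0 in the first 35%. Of 44 T cell receptor variable genes 22 did (50%), while another 16 started in the first 35%. These segments encode the variable parts of antigen receptors and lie in a few clusters, so they are not independent of each other. Among genes without protein products, 17.4% of 4918 lincRNAs, 21.3% of 7946 processed pseudogenes and 33.4% of 1049 unprocessed pseudogenes started in late bins, against 9.41% of protein-coding genes. Late bins made up 25% of the used bins, so of these types only unprocessed pseudogenes were above the share of bins. The density of lincRNA starts was 1.52 per Mb in late bins and 2.40 per Mb in the others.

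The share of late bins differed along the mouse autosomes, whose coordinates begin at the centromeric end. They made up 30.2% of used bins in the first 20% of the chromosome, 28.5%, 27.2% and 22.9% in the parts that follow and 17% in the last 20%. Of the used bins in the first 10 Mb of the chromosomes 27.3% were late, near the 25% over all used bins, and in the last 10 Mb 16.3%.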
